A study of Mus musculus with 4 samples.

Results

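The 10 genes described here are genes that T cells switch on early after antigen receptor signalling, together with corepressors of some of their products. Their levels were measured by RNA-seq in induced regulatory T cells (induced Treg cells). They were taken by symbol from 22121 symbols present in both deposited gene tables: the EGR factors Egr1, Egr2 and Egr3, their corepressors Nab1 and Nab2, the NR4A receptors Nr4a1, Nr4a2 and Nr4a3, the surface receptor Cd69, and Myc. Each of the 10 had 1 row in each table, and all 10 were among the 10587 genes with a mean of at least 1 FPKM (fragments scaled to transcript length and to library depth), which were tested. The cells were naive T cells sorted from C57BL/6 mice, wild type (WT) or labelled MSC KO, where MSC stands for musculin, a bHLH (basic helix-loop-helix) DNA-binding protein, and Msc is its gene. Both groups spent 3 days with TGF-beta (2 ng/ml) on dishes coated with CD3 and CD28 antibodies (1 µg/ml). There were 2 libraries per group, and 1 table holds WT 1 with MSC KO 1, the other WT 2 with MSC KO 2. The labels give neither the knockout allele nor whether replicates came from separate mice or cultures, so p-values measure only the spread between these libraries.

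EGR1, EGR2 and EGR3 are zinc finger transcription factors that bind GC-rich DNA and are induced within minutes by the ERK pathway. NAB1 and NAB2 bind the EGR proteins and repress their targets, and Nab2 is itself an EGR target. In T cells EGR2 and EGR3 restrain activation and have been tied to anergy. NR4A1 (Nur77), NR4A2 (Nurr1) and NR4A3 (Nor1) are orphan nuclear receptors that respond to antigen receptor strength through calcium signalling and help to maintain Foxp3 in Treg cells. CD69 holds activated T cells in tissue by removing the egress receptor S1PR1 from the surface, and MYC drives their growth.

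Msc was higher, not lower, in the libraries labelled MSC KO. It was at 0.0243 and 0.0178 FPKM in WT 1 and WT 2 and at 0.331 and 0.939 FPKM in MSC KO 1 and MSC KO 2. All 4 values are below the 1 FPKM set for testing, and the knockout allele is not given, so the labels cannot be checked by Msc. Every direction below is given for the libraries as labelled. Foxp3, which defines Treg cells, was at 62.8 and 66.0 FPKM in the WT pair, against 2.97 and 7.05 in the pair labelled MSC KO. CD4 T cell markers (7 of 8 found) summed to 1223 to 1310 FPKM in the 4 libraries, and CD8 markers (2 of 2) to 9.13 to 19.8 FPKM. Cd8b1 was at 9.75 and 9.75 FPKM in the WT pair against 8.56 and 19.1, and Cd8a at 1.58 and 1.90 against 0.571 and 0.658. The B cell markers summed to 5.04 to 7.25 FPKM, most of it Cd79b, and the 6 myeloid markers found to 0.577 to 1.08 FPKM. In bulk RNA, fewer cells of a type and less RNA per cell cannot be told apart. Sequencing depth, read from the value that a single fragment adds, ranged from 25700000 fragments (WT 1) to 35800000 (MSC KO 2). These estimates rest on few genes, 16 (MSC KO 2) to 36 (MSC KO 1), and the fragment counts and counting limits below depend on them. The WT libraries were close to each other. Over 289 genes with 1 long transcript the log2 ratio of WT 1 to WT 2 had a robust SD of 0.121, 2.67 times the variance that counting gives, against 0.331 and 21.5 times for MSC KO 1 and MSC KO 2.

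Of the 10 genes, 5 had both MSC KO-labelled values above both WT values: Egr1, Egr2, Egr3, Nr4a1 and Nr4a2. That pattern holds for 26.6% of all tested genes. Nab2 alone of the 10 was lower in both, a pattern of 32.5% of tested genes, and Nr4a3, Nab1, Cd69 and Myc moved in opposite directions in the 2 tables, as did 30.9%. These counts set levels from both tables side by side, and whether the tables were scaled together is not stated. No member passed limma at an adjusted p of 0.05, where 1 of 10587 genes did (0.00945%), and 3 of the 10 had an unadjusted p under 0.05, all of them higher (Egr1, Egr2 and Nr4a1), against 9.21% of tested genes higher and 20.4% in either direction. The same 3 were at least 0.5 higher on the log2(FPKM + 1) scale in both tables, against 4.01% of tested genes, and 0 were as far lower (3.37%). On that scale 0 of the 10 were at least 1 higher in both tables, against 1.32%. The median difference was 0.10 over the 10 genes and -0.02 over all tested genes. The authors' deposited tables called 0 of the 10 in either table, beside 0.656% and 0.549% of the symbols they tested.

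**Figure D1:**
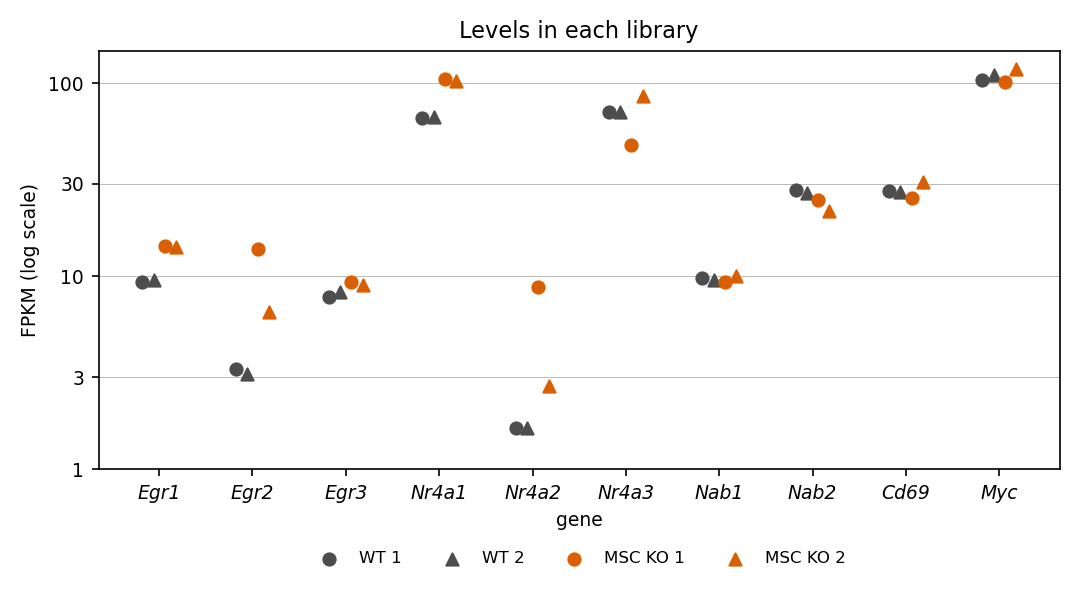
FPKM on a log axis of the 10 genes in each library, with 1 point per library (WT grey, MSC KO-labelled orange, replicate 1 circles, replicate 2 triangles). The WT points nearly coincide for each gene, while those of the MSC KO-labelled libraries lie apart for Egr2, Nr4a2 and Nr4a3.

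In WT cells the levels covered a wide range, and FPKM, being per length, allows their order to be read. Myc was highest at 107 ± 4.24 FPKM (mean ± SD, n = 2 here and below), followed by Nr4a3 at 70.6 ± 0.19 and Nr4a1 at 66.1 ± 0.465. Cd69 (27.4 ± 0.142) and Nab2 (27.4 ± 0.563) overlapped and could not be ordered. Nab1 followed at 9.66 ± 0.13 FPKM, Egr1 at 9.45 ± 0.138, Egr3 at 8.06 ± 0.37 and Egr2 at 3.21 ± 0.147, and Nr4a2 was lowest at 1.638 ± 0.000269. The lowest Nab1 value (9.57) was barely above the highest Egr1 value (9.54), so their order is not firm. The Nr4a2 SD is that of 2 nearly equal values, from about 150 and 205 fragments, and does not measure counting error. In the MSC KO-labelled libraries Myc (110 ± 12.3) and Nr4a1 (103 ± 1.83) overlapped at the top, ahead of Nr4a3 (66.8 ± 27), Cd69 (28.1 ± 3.65) and Nab2 (23.2 ± 2.22). Egr1 (14.2 ± 0.199) and Egr2 (10.1 ± 5.16) there stood above Nab1 (9.63 ± 0.516) and Egr3 (9.15 ± 0.212) by their means, although Egr2, Nab1 and Egr3 overlapped. Nr4a2 stayed lowest at 5.75 ± 4.29 FPKM.

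Egr2, on chromosome 10 (mm9, 67000616 to 67004936, the gene's locus in the tables), had the largest difference of the 10 in the fit. It was at 3.32 (WT 1) and 3.11 FPKM (WT 2), against 13.8 (MSC KO 1) and 6.49 FPKM (MSC KO 2). Both MSC KO-labelled libraries lay above both WT libraries, and MSC KO 1 held 2.12 times the level of MSC KO 2. The ratio to WT was 4.16 in the first table (95% exact Clopper-Pearson limits 3.62 to 4.78, from estimated fragments, counting error only) and 2.09 in the second (1.82 to 2.39). On the log2(FPKM + 1) scale the difference was 1.32 ± 0.27 (SE, 95% interval 0.52 to 2.12) and did not pass (adjusted p = 0.166, limma). For Egr2 the authors' deposited tables gave a p of 0.0026 (q = 0.170) in the first comparison and 0.0547 (q = 0.932) in the second.

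Egr1, on chromosome 18 (mm9, 35020860 to 35024610), differed by less and almost equally in both tables. It was at 9.35 (WT 1) and 9.54 FPKM (WT 2), against 14.4 (MSC KO 1) and 14.1 FPKM (MSC KO 2), with no overlap between the groups and 1.54 and 1.478 times the WT level. The difference was 0.55 ± 0.09 on the log2(FPKM + 1) scale (95% interval 0.28 to 0.81) and did not pass (adjusted p = 0.151, limma). Egr3, on chromosome 14 (mm9, 70476736 to 70482360 in the first table), was at 7.80 and 8.32 FPKM in the WT pair, against 9.30 and 8.995 in the pair labelled MSC KO. Its groups did not overlap either, but the ratios were 1.19 and 1.08, and the difference of 0.16 ± 0.10 had an interval from -0.12 to 0.45 (adjusted p = 0.411, limma). In the second table the ratio's counting limits, 0.998 to 1.17, included 1.

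Together the EGR genes came to 20.5 and 20.97 summed FPKM in the WT pair, against 37.5 and 29.6 in the pair labelled MSC KO, 1.83 and 1.41 times WT. Their make-up differed too. Egr2 was 16.2% and 14.8% of the EGR sum in the WT pair, against 36.8% (MSC KO 1) and 21.9% (MSC KO 2). Egr3, the partner with which EGR2 overlaps in function, stood at 2.35 and 2.68 times Egr2 in WT, against 0.674 (MSC KO 1) and 1.39 times (MSC KO 2).

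The corepressors did not follow the EGR genes upward. Nab2, on chromosome 10 (mm9, 127080041 to 127103759), was at 27.8 (WT 1) and 27.0 FPKM (WT 2), against 24.8 (MSC KO 1) and 21.6 FPKM (MSC KO 2). Both MSC KO-labelled values were below both WT values, but the difference of -0.23 ± 0.10 (95% interval -0.52 to 0.06) did not pass (adjusted p = 0.304, limma). The tables list Stat6 at the same locus, with 54.6, 58.0, 54.7 and 59.8 FPKM in WT 1, WT 2, MSC KO 1 and MSC KO 2, and reads of overlapping genes cannot be told apart where strand was not used, which the labels do not state. Nab1, on chromosome 1 (mm9, 52512692 to 52557292), was at 9.75 and 9.57 FPKM in the WT pair, against 9.27 and 9.999 in the pair labelled MSC KO, which overlap. Its difference was -0.004 ± 0.09 (95% interval -0.29 to 0.28, adjusted p = 0.987, limma). The summed NAB level was thus 1.84 and 1.74 times the summed EGR level in the WT pair, against 0.908 (MSC KO 1) and 1.07 times (MSC KO 2).

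**Figure D2:**
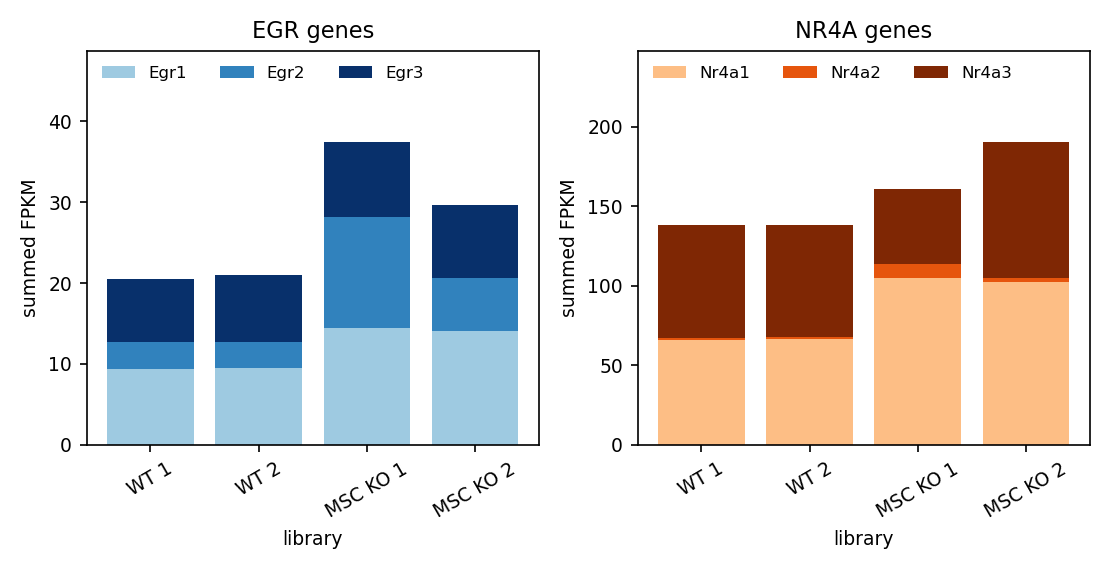
Stacked bars of FPKM of the 3 EGR genes (left) and the 3 NR4A genes (right) in each library, without error bars since each bar is 1 library. The EGR sums are 20.5 and 20.97 in WT against 37.5 and 29.6, and Nr4a3 is below Nr4a1 in both MSC KO-labelled libraries.

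The NR4A genes, each an orphan nuclear receptor with nearly the same DNA-binding domain, did not move as one. Sequences before their starts are shown because these 3 genes share a motif density that few promoters have. That motif was picked from several after the search, and no link to the levels was tested. Below are the 250 bases before the RefSeq start of Egr2 (GRCm38.p6, chr10:67537619-67537868, plus strand, 1 of 5 listed starts), Nr4a1 (chr15:101266596-101266845, plus strand) and Nr4a2 (chr2:57124004-57124253, minus strand). For Nr4a3 (chr4:48045055-48045162, plus strand) the first 108 of its 250 bases, up to the last match, are shown. Capitals mark TGACG on either strand (CGTCA on the other), the core letters of the cyclic AMP response element bound by CREB and ATF factors, and in Egr2 also a CArG box, the element bound by serum response factor.
Egr2: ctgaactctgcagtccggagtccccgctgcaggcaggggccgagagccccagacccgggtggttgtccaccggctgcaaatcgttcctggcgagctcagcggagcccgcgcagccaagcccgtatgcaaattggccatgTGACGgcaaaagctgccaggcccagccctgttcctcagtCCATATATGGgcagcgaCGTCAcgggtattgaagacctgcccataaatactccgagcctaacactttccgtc
Nr4a1: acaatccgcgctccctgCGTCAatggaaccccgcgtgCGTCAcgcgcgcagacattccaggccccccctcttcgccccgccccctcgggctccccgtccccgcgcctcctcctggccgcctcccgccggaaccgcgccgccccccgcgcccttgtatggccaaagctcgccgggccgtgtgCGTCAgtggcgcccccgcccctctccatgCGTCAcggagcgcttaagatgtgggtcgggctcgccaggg
Nr4a2: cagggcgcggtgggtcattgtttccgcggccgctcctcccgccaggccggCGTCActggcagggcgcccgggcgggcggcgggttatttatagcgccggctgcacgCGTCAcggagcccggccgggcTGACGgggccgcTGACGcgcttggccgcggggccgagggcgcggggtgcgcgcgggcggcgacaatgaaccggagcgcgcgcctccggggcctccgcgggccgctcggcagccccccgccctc
Nr4a3: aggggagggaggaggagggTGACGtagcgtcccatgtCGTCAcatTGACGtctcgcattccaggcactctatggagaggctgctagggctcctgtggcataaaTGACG
Each NR4A window held 4 matches to TGACG, and 0.137% of all 32851 windows of 250 bases held at least 4. The full element TGACGTCA was in none of them (1.55% of all windows). The Egr2 window shown held 2 matches to TGACG (at least 2 in 3.9% of all windows) and a CArG box (1.47%). Of the 5 Egr2 starts listed, 3 overlapping windows held 2 matches to TGACG and 2 windows held 0, and 4 held a CArG box. E-boxes, CANNTG, the class of site that basic helix-loop-helix factors such as musculin bind, matched once each in the Egr2 window shown and in Nr4a3 and not in Nr4a1 or Nr4a2, against at least 1 match in 66.2% of all windows. Promoter entries were found for 6 of the 10 genes. The EGR site GCGNGGGCG (4.70% of all windows) had 1 match each in Nr4a1 and Nr4a2 and 3 in Nab1. It had none in Nab2, in Nr4a3 or at any Egr2 start. A box for MEF2 factors (2.92% of all windows) matched in Nr4a2 alone. A match describes these letters only, and files and sequences are on different genome builds and were joined by symbol.

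Nr4a1, on chromosome 15 (mm9, 101097276 to 101105225), was, like Egr1, nearly equal in both MSC KO-labelled libraries. It was at 65.8 (WT 1) and 66.4 FPKM (WT 2), against 105 (MSC KO 1) and 102 FPKM (MSC KO 2), with no overlap between the groups and ratios to WT of 1.59 and 1.54. The difference was 0.64 ± 0.09 on the log2(FPKM + 1) scale (95% interval 0.37 to 0.91) and had the lowest p of the 10, without passing (adjusted p = 0.140, limma). Fitted with no table block, Nr4a1 passed (adjusted p = 0.0444, limma), where 153 of 10587 genes passed, against 1 in the main fit. In the other settings with all 4 libraries it did not pass (adjusted p from 0.0854 to 0.419, limma).

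Nr4a2, on chromosome 2 (mm9, 56959636 to 56976414), was the scarcest of the family and the most uneven. It was at 1.638 (WT 1) and 1.639 FPKM (WT 2), against 8.78 (MSC KO 1) and 2.71 FPKM (MSC KO 2), from about 150, 205, 887 and 346 fragments. Both MSC KO-labelled libraries were above WT, at 5.36 times (counting limits 4.51 to 6.43) and 1.65 times (1.38 to 1.97), and MSC KO 1 held 3.24 times the level of MSC KO 2. The difference was 1.19 ± 0.40 on the log2(FPKM + 1) scale (95% interval -0.01 to 2.39, adjusted p = 0.246, limma). The authors' deposited tables gave it a p of 0.003 (q = 0.184) and 0.261 (q = 0.999).

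Nr4a3, on chromosome 4 (mm9, 48064108 to 48099321 in the first table), split the MSC KO-labelled libraries around the WT level. It was at 70.7 (WT 1) and 70.5 FPKM (WT 2), against 47.7 (MSC KO 1) and 85.8 FPKM (MSC KO 2). The ratio to WT was 0.674 (counting limits 0.654 to 0.694) in the first table and 1.22 (1.19 to 1.25) in the second, with at least 7717 estimated fragments in every library. The difference of -0.14 ± 0.25 had an interval from -0.88 to 0.60 (adjusted p = 0.780, limma).

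The NR4A genes summed to 138 and 139 FPKM in the WT pair, against 161 (MSC KO 1) and 191 (MSC KO 2). Nr4a1 made up 47.6% and 48.0% of that sum in the WT pair, against 65.0% (MSC KO 1) and 53.6% (MSC KO 2). Nr4a3 and Nr4a1 were near parity in WT, with a ratio of Nr4a1 to Nr4a3 of 0.930 and 0.943, and Nr4a1 led with ratios of 2.20 in MSC KO 1 and 1.19 in MSC KO 2. MSC KO 1 thus combined the highest Egr2 and Nr4a2 of the 4 libraries with the lowest Nr4a3. For these 3 genes the gap between the MSC KO-labelled libraries, 0.98, 1.40 and 0.84 on the log2(FPKM + 1) scale, exceeded that of 96.0%, 98.1% and 94.5% of tested genes. For Egr1, Egr3 and Nr4a1 it was 0.03, 0.04 and 0.04, with 8.5%, 13.5% and 11.5% of tested genes at or below it. The genes were grouped in this way after their values were seen. The median gap was 0.207 over the 10 genes and 0.171 over all tested genes.

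**Figure D3:**
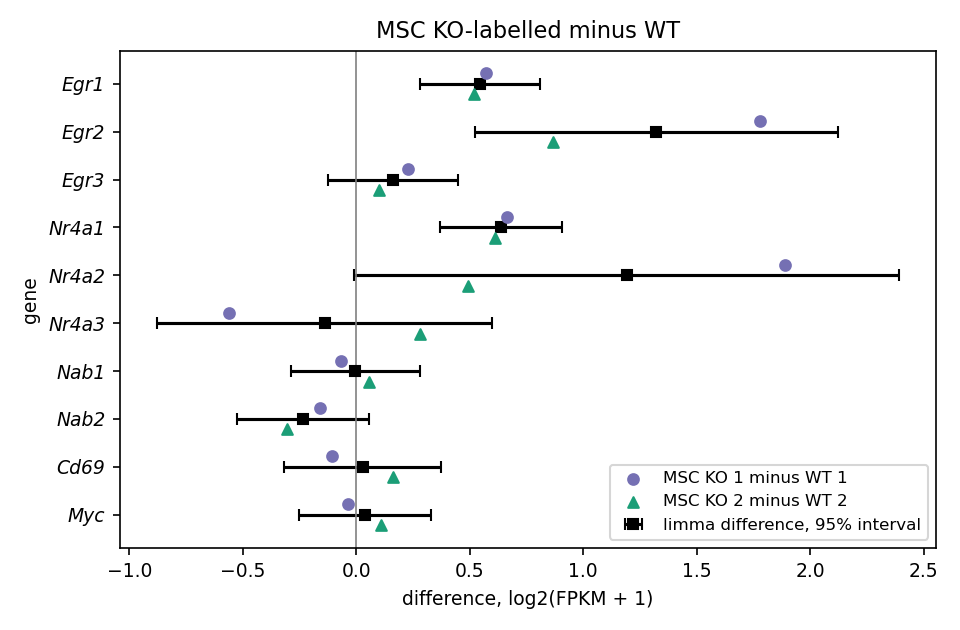
Difference between MSC KO-labelled and WT libraries on the log2(FPKM + 1) scale, with the limma estimate and its 95% interval (squares, bars) and the difference in each table (circles, triangles). Intervals of Egr1, Egr2 and Nr4a1 lie above 0 before adjustment, and the points of Nr4a3 fall on opposite sides of 0.

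Cd69, on chromosome 6 (mm9, 129217342 to 129225387), and Myc, on chromosome 15 (mm9, 61816895 to 61821916), stayed near their WT level. Cd69 was at 27.5 and 27.3 FPKM in the WT pair, against 25.5 (MSC KO 1) and 30.7 (MSC KO 2), which lie on either side of WT. Its difference was 0.03 ± 0.11 (95% interval -0.32 to 0.37, adjusted p = 0.913, limma). Myc was at 104 and 110 FPKM in the WT pair, against 101 (MSC KO 1) and 119 (MSC KO 2), again on either side of WT. Its difference of 0.04 ± 0.10 had an interval from -0.25 to 0.33 (adjusted p = 0.854, limma), so that changes of up to these sizes remain possible for both genes.

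**Figure D4:**
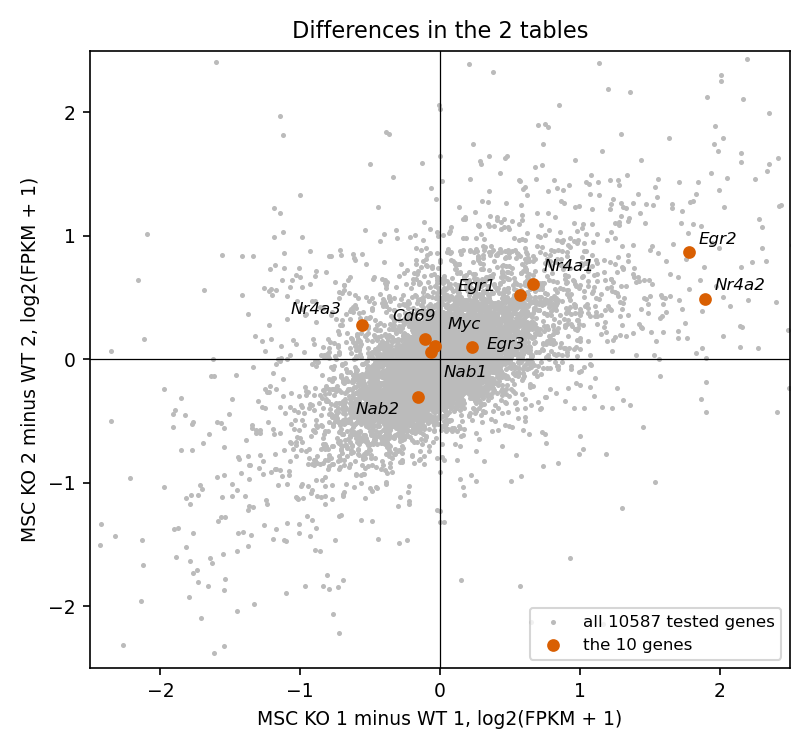
Difference in the first table (x axis) against the second (y axis) on the log2(FPKM + 1) scale for all 10587 tested genes (grey) and the 10 genes (orange), with 168 genes beyond the plotted range of 2.5 in either table. Egr2 and Nr4a2 lie far to the right with a smaller difference in the second table, and Cd69, Myc and Nab1 lie among the bulk of genes near 0.

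The other early response genes were described from a list of 38 genes, of which 33 were tested. By limma 0 passed in either direction over all genes. An unadjusted p under 0.05 was found for 14, all of them higher, against 9.21% of all tested genes higher and 11.2% lower. Of the 33, 21 were above WT in each table and 2 below it in each (Jun and Dusp6, named after their values were seen), against 31.2% and 37.5% of all tested genes, and the median difference was 0.40 against -0.02 over all tested genes. Jun, an AP-1 gene, was at 32.6 and 30.7 FPKM in the WT pair against 17.3 and 30.3, and Dusp6, an ERK phosphatase gene, at 7.05 and 6.77 against 3.95 and 6.57. Both lay well below WT in the first table and close to it in the second. The AP-1 gene Fosl2 was at 4.64 and 4.76 FPKM in the WT pair, against 29.1 and 16.9 in the pair labelled MSC KO (2.03 ± 0.23, adjusted p = 0.123, limma). Atf3, a stress-responsive factor of the CREB and ATF family, was at 6.83 and 6.79 FPKM against 31.5 and 20.6 (1.76 ± 0.18). Irf4, whose level follows antigen receptor strength, was at 63.1 and 65.9 FPKM against 166 and 160 (1.32 ± 0.09). The immediate early gene Fos, also named after its values were seen, was at 0.819 and 1.02 FPKM against 4.04 and 1.82.

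**Figure D5:**
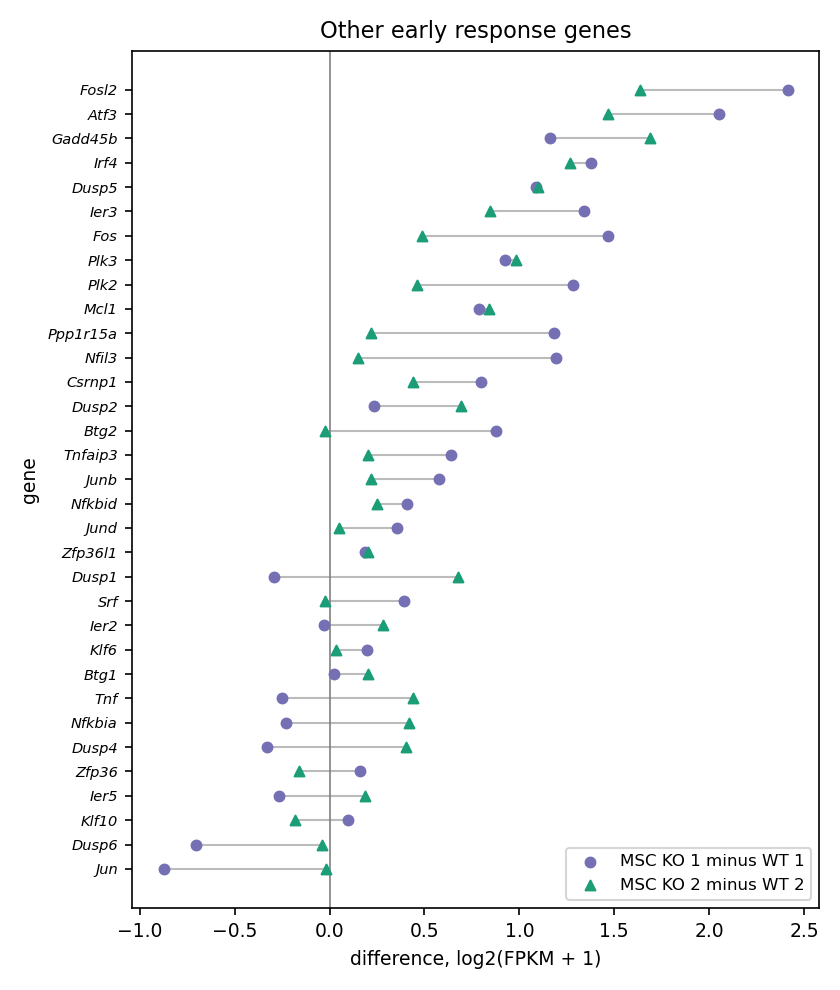
Difference on the log2(FPKM + 1) scale for the 33 tested early response genes other than the 10, with a circle for the first table and a triangle for the second. Of these, 21 lie above 0 in both tables and 2 below 0 in both, and Fosl2 and Atf3 are at the top.

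Genes that control EGR and NR4A induction, from serum response factor and the ERK route to calcineurin, NFAT and MEF2, lay on both sides of WT. Of 28 listed, 27 were tested and 0 passed by limma. With an unadjusted p under 0.05, 1 was higher and 6 lower (all tested genes: 9.21% and 11.2%). Both tables had 9 higher and 10 lower, with a median of 0.01 (all tested genes: 31.2%, 37.5% and -0.02). Crem, which encodes cyclic AMP response element modulators, was at 21.7 and 21.9 FPKM in WT against 77.2 and 54.5 (1.53 ± 0.17, adjusted p = 0.121, limma). Ppp3ca, a catalytic subunit of calcineurin, was at 8.01 and 8.75 FPKM against 4.19 and 4.88 (-0.76 ± 0.10). Mef2d, a factor through which calcium induces Nr4a1, was at 19.1 and 19.2 FPKM against 14.2 and 13.7 (-0.43 ± 0.09).

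Genes that T cell studies name as EGR2 or EGR3 targets lay on both sides of WT. Of 25 listed, 19 were tested and 0 passed by limma. With an unadjusted p under 0.05, 9 were higher and 4 lower (all tested genes: 9.21% and 11.2%). Both tables had 12 higher and 6 lower (median 0.25), beside 31.2% higher and 37.5% lower and a median of -0.02 over all tested genes. Il10, which encodes an anti-inflammatory cytokine, stood at 0.478 and 0.468 FPKM in WT against 39.6 and 10.1 (3.85 ± 0.52, adjusted p = 0.140, limma). Socs3, a feedback inhibitor of cytokine signalling, was at 9.83 and 9.62 FPKM against 80.1 and 38.8 (2.41 ± 0.29). Ccl1, a chemokine gene, was at 24.8 and 31.7 FPKM against 2.60 and 0.0877 (-3.88 ± 0.57). Among genes named as NR4A targets, 17 of 20 were tested, 0 passed, and both tables had 8 higher and 5 lower (median 0.11). Of these, 7 were higher and 5 lower with an unadjusted p under 0.05 by limma. Foxp3, which NR4A receptors activate, was -3.53 ± 0.27 on that scale (adjusted p = 0.115, limma). Il4, which encodes a type 2 cytokine, stood at 1.71 and 1.46 FPKM against 23.9 and 8.47 (2.57 ± 0.36), and Klf2, a factor of quiescent T cells, at 56.7 and 53.0 against 4.76 and 5.24 (-3.22 ± 0.10).

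Around Cd69, the egress genes were uneven. Of 9 listed and tested, 0 passed by limma. With an unadjusted p under 0.05, 1 was higher and 4 lower (all tested genes: 9.21% and 11.2%). Both tables had 2 higher and 4 lower (median -0.13), where all tested genes had 31.2%, 37.5% and -0.02. Klf2, which also stands in this list, was at 56.7 and 53.0 FPKM in the WT pair against 4.76 and 5.24 (-3.22 ± 0.10). Nedd4l, a ubiquitin ligase gene, was at 2.85 and 2.96 FPKM in the WT pair against 1.78 and 1.82 (-0.48 ± 0.13, adjusted p = 0.209, limma). S1pr1, which encodes the receptor that CD69 removes, was at 19.5 and 21.1 FPKM against 22.2 and 18.3 and, like S1pr4 (22.8 and 23.2 against 24.2 and 18.1), was named after its values were seen.

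Around Myc, partners and targets were spread around WT, and the median of the partners lay near that of all tested genes. Of 19 partners and antagonists listed, 14 were tested and 0 passed by limma. With an unadjusted p under 0.05, 0 were higher and 3 lower (all tested genes: 9.21% and 11.2%). Both tables had 3 higher and 6 lower (median -0.03), beside 31.2% higher and 37.5% lower and a median of -0.02 over all tested genes. Max, the obligate partner of MYC, was at 74.2 and 73.3 FPKM in WT against 48.8 and 52.9 (-0.53 ± 0.10, adjusted p = 0.153, limma). Mxd1, which competes for MAX, was at 18.9 and 20.0 FPKM against 12.1 and 9.98 (-0.77 ± 0.13), and Usp28, a deubiquitinase that stabilises MYC, at 6.998 and 7.38 against 4.12 and 6.10 (-0.44 ± 0.15). Of 30 MYC targets, 29 were tested, 0 passed, and both tables had 11 higher and 5 lower (median 0.05). Among these targets 2 were higher and 2 lower with an unadjusted p under 0.05 by limma. Hk2, hexokinase, was at 20.8 and 20.8 FPKM against 39.9 and 30.6 (0.72 ± 0.13). Odc1, the first enzyme of polyamine synthesis, was at 252 and 256 FPKM against 183 and 139 (-0.67 ± 0.14), and Tfrc, the transferrin receptor, at 126 and 130 against 91.6 and 89.7 (-0.49 ± 0.09).

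Later activation genes, 15 of 16 tested, had 9 members higher and 3 lower in both tables, a median of 0.33 and 0 that passed by limma. Over all tested genes 31.2% were higher and 37.5% lower, with a median of -0.02. With an unadjusted limma p under 0.05, 6 of the 15 were higher and 1 lower (all tested genes: 9.21% and 11.2%). Il2, a growth factor of T cells and a target that EGR1 and NFAT drive together, was at 4.24 and 4.29 FPKM in WT against 33.9 and 26.7 (2.56 ± 0.13, adjusted p = 0.100006, limma). Gzmb, granzyme B, was at 63.7 and 67.7 FPKM against 372 and 180 (1.96 ± 0.32), and Ltb, lymphotoxin beta, at 339 and 328 against 163 and 198 (-0.89 ± 0.12).

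The genes most like a member were those at the smallest Euclidean distance over the 4 libraries on the log2(FPKM + 1) scale, each centred on its own mean. For Egr2 they were Pik3ap1, Vps37b, Arl4c and Ust (distances 0.101 to 0.171). Pik3ap1, an adaptor of phosphoinositide 3-kinase, was at 1.64 and 1.71 FPKM in the WT pair, against 7.94 (MSC KO 1) and 3.78 (MSC KO 2). For Nr4a1 they were Polr3d, Tarbp2, Ccdc58 and Adam15 (0.0203 to 0.0550), and for Myc Atpaf1, Dcp1a, Apc and Ccdc74a (0.00694 to 0.0213). With 4 libraries such likeness is a description of levels only.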

How the data were processed

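RNA-seq libraries of 2 WT and 2 MSC KO-labelled induced Treg cell samples were deposited by the authors as 2 gene tables. TopHat and mm9 are named by the submitters' processing notes, while version, annotation and counting are not stated there. The unit of the deposited values was inferred to be FPKM from the columns' layout, and the authors added a p-value and a q-value for 1 library against 1. Rows without a symbol (49.9% to 54.1% of summed FPKM) and 24 date-like symbols per table were left out, as were 2 symbols at loci apart and 6 with a failed estimate. No other sample columns are present.

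Differences were taken within a table on log2(FPKM + 1), where 1 is the pseudocount, which understates changes of low genes. Genes with a mean of at least 1 FPKM were tested with limma 3.58.1 (R 4.3.3), table as a block, trended prior (2.35 degrees of freedom, residual 1), two-sided, Benjamini-Hochberg over all genes, threshold 0.05. The test was checked on simulated data in which a gene had the same spread in every library. The WT pair here was closer than the MSC KO-labelled pair, so that check does not give the power in these data. Depth used single-transcript genes over 2500 bp of GENCODE M21, matched by name, and fragments of a gene its longest coding transcript. Counting limits are exact Clopper-Pearson at 95% and cover counting error only. Tables were handled in Python 3.11.15 with pandas 2.3.3. Motifs were searched on both strands of RefSeq GRCm38.p6 windows, and overlapping matches each counted.

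Members and lists were chosen with earlier results of these data known. Named were the 10 members, the 3 tested genes of each list with the largest smaller difference of 1 sign in both tables, and the 4 genes most like Egr2, Nr4a1 and Myc, leaving out symbols of the Gm, Mir, Snor and Rik kinds. Of these, 1 gene is not reported here. Irf4, Bcl6, Bcl2l11, Klf2 and Srf stand in 2 lists. Alternatives changed the pseudocount, the filter, the scaling, the block, the prior, repeated rows, small RNA symbols and each library.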

Additional observations from a re-analysis of the deposited data

How the results depend on the processing

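Of 15 alternatives, 9 gave a count of genes at least 2-fold apart in both tables, all within 1.5 times of 226 (154 to 327). The count of genes called by limma, 1, was 0 with no filter on low values (2469 at an unadjusted p under 0.05), with quantile normalization (2315) and with a prior without trend (2083), 3 with a mean of at least 5 FPKM (where Nr4a2 was not tested), 7 with libraries rescaled to the same sum, 26 with small RNA symbols left out and 153 with no replicate block (78 higher, 75 lower), and 0 (without WT replicate 1, 784 unadjusted) to 2665 without 1 library. Scaling left Egr1, Egr2, Nr4a1 and Nr4a2 above WT. With no replicate block Nr4a1 (0.64, adjusted p = 0.0444) passed and no other member did. Same-numbered libraries shared little (correlation of their deviations 0.0589 over 10587 genes), and the block stands for the table.

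Rescaling to the same sum turned Cd69 to -0.013 and Myc to -0.0034, and centring on the median turned Nab1 to 0.00049. Without 1 library, the block was dropped, and an arm of 1 sample was assumed to have the spread of the other arm. Without either MSC KO library the spread came from the close WT pair, so passing in these fits is not read as a result for a member. Without 1 library the differences ranged from 0.53 to 0.56 for Egr1, 0.83 to 1.81 for Egr2, 0.12 to 0.21 for Egr3, 0.62 to 0.66 for Nr4a1, 0.49 to 1.89 for Nr4a2, -0.56 to 0.28 for Nr4a3, -0.054 to 0.045 for Nab1, -0.33 to -0.14 for Nab2, -0.10 to 0.16 for Cd69 and -0.075 to 0.15 for Myc. Nr4a3 took opposite signs, 0.28 without MSC KO replicate 1 and -0.56 without MSC KO replicate 2. Myc was -0.0019 without WT replicate 1. Without WT replicate 1 or 2 the spread came from the MSC KO-labelled pair, and passing is not read there either. At the estimated depths of 25700000 to 35800000 fragments, the variance between MSC KO 1 and MSC KO 2 over genes was 21.5 times what counting gives. The cause of each shift was not tested.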
